A study of Mus musculus with 3 samples.

Results

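The genes described here are the immunoglobulin genes of a regulatory T cell sample, the segments and constant genes that encode antibody heavy and light chains. A gene was a member if GENCODE M21 gives it the type of an immunoglobulin V, D, J or C gene and if its estimated counts, summed over the 3 libraries, came to 10 or more. Of 264 annotated genes of these types, among 55536 genes in all, 58 met this rule. They were 47 V genes, with 15 of the heavy chain locus Igh, 29 of the kappa locus Igk and 3 of the lambda locus Igl, and 11 constant genes, with 7 of Igh, 1 of Igk and 3 of Igl. None of the 14 J genes or 19 D genes was a member. The members were thus selected on their summed estimated counts, which are no finding, and the values by library are described below.

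Polyadenylated RNA was sequenced from regulatory T cells (Tregs) of an adult male mouse aged 6 months, of the strain Foxp3CreERT2 x Rosa26YFP. In this strain a tamoxifen-activated Cre is made from the Foxp3 gene, the lineage factor of Tregs, and YFP is the reporter. The cells are labelled as inflammation-experienced. All libraries are tied to the same donor and count as 1 biological replicate with 3 technical replicates, numbered here as library 1, 2 and 3. There was no second group, so each p-value below compares libraries and not conditions, and the stage of the protocol where the technical replicates separated is not stated. A sort gate or purity is not given in the sources used here.

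Each lymphocyte that makes an antibody joins V, D and J segments of the heavy chain locus, and V and J segments of a light chain locus, into an exon that is spliced to a constant gene. The constant gene sets the isotype: Ighm gives IgM, Ighd IgD, the Ighg genes IgG, Ighe IgE and Igha IgA. A clone of B cells carries its own V segments, and plasma cells derived from it secrete the antibody in bulk. T cells rearrange the T cell receptor loci instead and do not secrete antibody. Transcripts of the constant genes that lack a V segment, called germline or sterile transcripts, are also known in lymphocytes.

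Estimated counts over genes summed to 11829501, 14136139 and 10667765 in libraries 1, 2 and 3. Counts relative to these totals (CPM) were taken after TMM scaling, which puts the libraries on a common level. A gene at 0 is compatible with up to 3 counts, or 0.255, 0.217 and 0.273 CPM in the 3 libraries. These floors and the intervals below, all at 95%, cover counting error only, because copies made by PCR are not independent molecules. The T cell and Treg markers were present throughout: Cd3e stood at 1119, 1109 and 1128 TPM, a level scaled by transcript length and library, and Foxp3 at 18.0, 14.3 and 16.01 TPM in libraries 1, 2 and 3. The Treg markers Il2ra (85.55, 63.3 and 98.1 TPM), Ikzf2 (451, 371 and 478) and Ctla4 (146, 96.4 and 130) were, like Foxp3, lowest in library 2. Il2ra, Ikzf2 and Ctla4 differed between the libraries in the test described below and Foxp3 did not, so Treg markers were not all level.

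Immunoglobulin RNA was a small part of every library and differed between them. The 58 members together took 0.0493% of gene counts in library 1 (Wilson interval 0.0480 to 0.0506), 0.0629% in library 2 (0.0616 to 0.0643) and 0.0840% in library 3 (0.0823 to 0.0858). Ighm alone held 71.4% of the 23691 member counts and Igkc, the kappa constant gene, another 14.6%. Without Ighm the share was 0.00246% in library 1 (0.00219 to 0.00275), 0.0212% in library 2 (0.0205 to 0.0220) and 0.0327% in library 3 (0.0316 to 0.0338). The members other than Ighm were thus scarce in library 1, and the intervals of the 3 libraries did not overlap with or without Ighm. Over all 264 annotated genes, Ighm included and without the sum rule, the share was 0.0495%, 0.0636% and 0.0856% in libraries 1, 2 and 3. In a bulk sample like this, fewer cells of a type and less RNA per cell cannot be told apart.

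Equal rates between the libraries were tested gene by gene with a Poisson chi-square test on rounded estimated counts, with TMM-scaled sizes from edgeR and Benjamini-Hochberg adjustment over all genes tested. A gene was tested at a mean count of 10 or more and passed at an adjusted p below 0.05. Of all 13970 genes tested, 6388 passed, or 45.7%, so passing was common in these libraries. All 37 members tested passed. Of these, 27 had their lowest CPM in library 1, as did 29.5% of all genes that passed and 31.7% of all genes tested. The median chi-square per degree of freedom was 39.7 over the tested members and 3.28 over all tested genes. These counts are a description and no support, since 23 of the 37 held 10 or more counts in 1 library only and could enter the test only through it, and just 4 (Ighm, Igkc, Ighd and Igha) held 10 or more in every library. At a mean count of 3 or more all 58 members were tested and 55 passed, where 39.2% of 18520 genes did. Igkv8-30, Ighv9-3 and Ighv5-17 did not pass there.

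The 10 tested members that were not lowest in library 1 alone fell into 3 kinds. Ighm, Ighg3, Igkv9-120 and Igkv5-43 were lowest in library 2, and Igkv8-34 was lowest in library 3. Apart from Ighm, the lowest library could not be told from library 1. The ratio of library 2 to library 1 had intervals of 0.230 to 2.35 for Ighg3, 0.0618 to 11.8 for Igkv9-120 and 0.0109 to 66.9 for Igkv5-43. Igkv8-34 had 2 counts in library 1 and 0 in library 3, within the floor of 3. Ighg2c and Igkv17-121 were at 0 in libraries 1 and 2, and Igkv17-127, Ighv7-3 and Igkv14-126 at 0 in libraries 1 and 3. No tested member was highest in library 1.

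Ighm (ENSMUSG00000076617.9, mm10 chr12:113418558-113422730, minus strand) encodes the constant region of the mu heavy chain. It had 5539, 5898 and 5478 estimated counts in libraries 1, 2 and 3, and 395, 353 and 426 TPM. The libraries lay close together, with library 2 lowest and library 3 highest. Library 3 exceeded library 1 by 1.06-fold (interval 1.02 to 1.10) and library 2 by 1.17-fold (1.12 to 1.21), with an adjusted p of 1.5e-14 over the 3 libraries in the Poisson chi-square test. Ighm was the only tested member whose largest ratio between libraries stayed below 2-fold.

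The mu chain exists as a membrane form, which anchors the B cell receptor, and a secreted form, which ends in a short tailpiece. They arise from the same gene by the choice between a polyadenylation site after the last shared exon and splicing to the membrane exons. The annotated ends of the coding sequences of both forms are shown because the transcript estimates turn on them, from the GENCODE M21 transcripts on mm10 (minus strand of chromosome 12). The last 30 shared bases are in lower case and the bases of each form are in capitals, up to and including the stop codon.
Ighm-201: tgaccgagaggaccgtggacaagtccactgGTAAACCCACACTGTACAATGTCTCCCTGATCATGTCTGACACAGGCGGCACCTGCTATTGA
Ighm-202: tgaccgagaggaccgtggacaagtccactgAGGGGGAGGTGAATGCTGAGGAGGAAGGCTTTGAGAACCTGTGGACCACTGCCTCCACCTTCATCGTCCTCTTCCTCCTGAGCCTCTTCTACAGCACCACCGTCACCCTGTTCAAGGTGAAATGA
The secreted end, in Ighm-201 (chr12:113420867-113420958), has 62 bases of its own and the membrane end, in Ighm-202 (exons within chr12:113418826-113420958), has 125. The secreted transcript was estimated at 48.4%, 57.8% and 49.0% of the gene's TPM in libraries 1, 2 and 3, and the membrane transcript at 51.6%, 42.2% and 51.1%. Library 2 had the higher share of the secreted form and libraries 1 and 3 were alike. The deposited posterior SD of the secreted transcript's count was 75.8, 71.5 and 71.0 reads on 2499, 3215 and 2500 counts.

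Ighd, the delta constant gene expressed with Ighm by mature B cells, had 23, 142 and 160 counts (1.45, 7.97 and 11.0 TPM). Library 1 was low and the others were near each other. It was 5.26-fold higher in library 2 than in library 1 (interval 3.37 to 8.57) and 7.45-fold higher in library 3 (4.79 to 12.1), with an adjusted p of 2.5e-22 in the Poisson chi-square test. Its transcript with the membrane exons, Ighd-202, took 100%, 87.5% and 100% of its TPM. Igha, the constant gene of the antibody of mucosal surfaces, had 29, 86 and 174 counts (2.96, 7.34 and 19.7 TPM) and was ordered library 1, 2, 3 from low to high. The ratio to library 1 was 2.53 (1.64 to 3.99) in library 2 and 6.42 (4.32 to 9.88) in library 3, with an adjusted p of 1.1e-28. Nearly all of it was assigned to the transcript without a membrane exon, Igha-201, at 97.7%, 98.5% and 98.9%.

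The IgG genes were seen mostly in library 3, with a few counts of Ighg2b and Ighg3 in the other libraries. Ighg2c, an IgG2 gene, had 0, 0 and 201.7 counts (0, 0 and 22.9 TPM). Library 3 was at least 72.1-fold above library 1 and at least 84.6-fold above library 2, taking 3 counts as the floor in each. Ighg2b had 2, 4 and 137 counts, again with library 3 alone high, and the ratio of library 3 to library 2 was 43.0 (16.4 to 160). Ighg1 was seen in library 3 only, with 18 counts and 0 in the others, and was too low for the test at a mean of 10 counts. Ighg3 had 8, 7 and 28 counts, with 5.02-fold more in library 3 than in library 2 (2.14 to 13.6). The adjusted p over the 3 libraries was 2.0e-100 for Ighg2c, 1.7e-62 for Ighg2b and 2.1e-05 for Ighg3 in the Poisson chi-square test. Each of these genes held 10 or more counts in library 3 only, so its p-value is a description and no support. In library 3 the transcripts without membrane exons took 100% of Ighg2c (Ighg2c-202), 97.7% of Ighg2b, 87.6% of Ighg1 and 92.1% of Ighg3. Ighg2b and Ighg2c share 94.2% of the bases of their longest coding exon, so reads may be split between them by the model, though the deposited posterior SD of either count in library 3 was 2.00 reads. Ighe, the IgE gene, had 0 counts in every library and was no member.

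**Figure D1:**
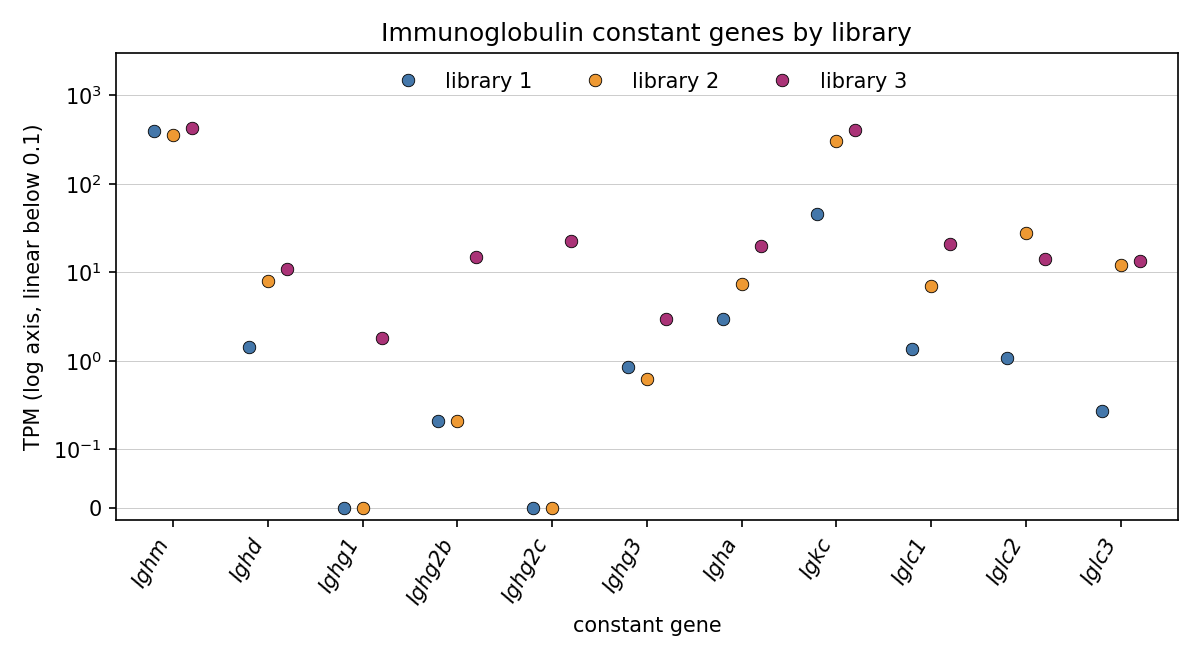
TPM of the 11 constant genes (y axis, logarithmic above 0.1) in each of the 3 libraries (points, coloured by library). Ighm lies between 353 and 426 TPM in every library, the other constant genes are low in library 1, and Ighg1, Ighg2b and Ighg2c stand out in library 3 alone.

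As shares of all heavy chain constant counts, IgM took 98.9% (98.6 to 99.1), 96.1% (95.6 to 96.6) and 88.4% (87.6 to 89.2) in libraries 1, 2 and 3. The IgG genes took 0.179% in library 1 (0.0970 to 0.328) and 0.179% in library 2 (0.1001 to 0.321), and 6.21% in library 3 (5.64 to 6.84). Leaving out Ighm, whose level was alike, the balance of the other isotypes differed from library to library. IgG led in library 3 with 53.5% of the 719 counts (49.9 to 57.2). In library 2 the leader depended on the table. IgD took 59.4% of the 239 estimated counts there (53.1 to 65.4) and IgA 36.0% (30.2 to 42.2), whereas in the authors' whole-number table IgA took 50.7% of 150 counts (42.7 to 58.6) and IgD 43.3% (35.7 to 51.3), and on TPM they took 45.5% and 49.4%. In library 1 only 62 counts were left, of which IgA took 46.8% (34.9 to 59.0) and IgD 37.1% (26.2 to 49.5), intervals that overlap. In the whole-number table IgA took 61.5% of 39 counts in library 1 (45.9 to 75.1) and IgD 17.9% (8.98 to 32.7). IgE had 0 counts in each library, and a floor of 3 counts allows it up to 0.0536%, 0.0489% and 0.0484% of heavy chain constant counts.

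Among the light chains, Igkc (mm10 chr6:70726435-70726966, plus strand), the constant region of every kappa chain, had 198, 1625 and 1625 counts and 45.3, 308 and 405 TPM. Library 1 was low and libraries 2 and 3 were high. The ratio to library 1 was 7.00 (6.03 to 8.15) in library 2 and 8.79 (7.58 to 10.2) in library 3. Its chi-square per degree of freedom, 582, was the highest of the members (adjusted p = 2.1e-250, Poisson chi-square test). The lambda constant genes were lower. Iglc1 had 5, 31 and 70 counts, Iglc2 4, 149 and 57.3, and Iglc3 1, 53.2 and 44.6, so that library 1 was lowest for each, library 2 highest for Iglc2 and library 3 highest for Iglc1. Iglc2 and Iglc3 share 96.2% of the bases of their longest coding exon and their split is uncertain. Iglc4 had 1 count in each of libraries 2 and 3 and was no member. Kappa took 95.2% (91.4 to 97.4), 87.4% (85.8 to 88.8) and 90.4% (88.9 to 91.7) of light chain constant counts, so kappa dominated everywhere and its share was lowest in library 2.

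V segments, which encode most of the antigen-binding part, had few or no counts in library 1 and differed between libraries 2 and 3. In library 1, 35 of the 47 V members had 0 counts, 46 had 2 or fewer, and the highest was Ighv9-3 with 6. Over all 218 annotated V genes, not chosen on their sum, 36, 91 and 106 had 1 or more counts in libraries 1, 2 and 3. In library 2 the highest V member had 128 counts and in library 3 it had 103. The V members took 0.000173% of gene counts in library 1 (0.000109 to 0.000261), 0.00638% in library 2 (0.00598 to 0.00681) and 0.00911% in library 3 (0.00855 to 0.00969). Most V members reached the summed count through library 2 or 3, so these shares understate V counts in library 1 the most. They are a description and no support. All annotated V genes, members or not, held 20.5, 259 and 260 Igh counts in libraries 1, 2 and 3. The same counts were 31.75, 633 and 823 at Igk and 0, 109 and 54 at Igl.

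The 3′ coding ends of V segments abundant in library 2 or 3 are shown because they hold the germline start of CDR3 and let the segments be told apart by eye. Each is the last 90 coding bases of the annotated segment on mm10, from the GENCODE M21 transcripts. Capitals run from the codon of the last cysteine, after which the germline part of the antigen-contacting loop CDR3 begins. The first 3 had the most counts of the kappa segments in library 2 and Ighv7-3 the most of its heavy chain segments. The next 3 had the most counts of the kappa segments in library 3, and the last 2 are heavy chain segments abundant in both.
Igkv8-34: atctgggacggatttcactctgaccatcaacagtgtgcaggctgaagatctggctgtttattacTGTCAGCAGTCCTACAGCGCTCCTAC
Igkv1-117: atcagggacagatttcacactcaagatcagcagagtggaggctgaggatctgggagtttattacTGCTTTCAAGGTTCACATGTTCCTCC
Igkv8-28: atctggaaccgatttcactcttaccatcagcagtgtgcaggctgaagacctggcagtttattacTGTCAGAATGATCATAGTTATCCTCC
Ighv7-3: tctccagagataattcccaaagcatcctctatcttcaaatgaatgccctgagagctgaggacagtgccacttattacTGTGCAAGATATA
Igkv16-104: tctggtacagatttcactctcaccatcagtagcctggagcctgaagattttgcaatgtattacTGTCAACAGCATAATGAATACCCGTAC
Igkv12-46: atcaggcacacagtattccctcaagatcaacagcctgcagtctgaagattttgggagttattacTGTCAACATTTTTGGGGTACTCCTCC
Igkv12-41: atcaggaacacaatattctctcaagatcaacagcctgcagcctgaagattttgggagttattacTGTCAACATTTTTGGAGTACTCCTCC
Ighv1-53: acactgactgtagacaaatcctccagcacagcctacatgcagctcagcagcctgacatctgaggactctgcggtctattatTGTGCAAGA
Ighv4-1: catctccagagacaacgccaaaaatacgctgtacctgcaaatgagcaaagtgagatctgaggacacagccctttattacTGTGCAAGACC
Over their longest coding exon the leading kappa segments of the libraries, Igkv8-34 and Igkv16-104, were 62.9% identical, aligned with gaps. Igkv8-34 and Igkv8-28 were 86.4% identical and Igkv12-41 and Igkv12-46 94.97%, so the last pair differs at 15 of 298 bases and some of its reads may be shared.

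Library 2 was led by Igkv8-34 (chr6:70044112-70044201 for the bases shown), with 2, 128 and 0 counts in libraries 1, 2 and 3. It was high in library 2 alone, at least 34.0-fold above library 3 with 3 counts as the floor (adjusted p = 5.1e-22 for library 2 against 3, Poisson chi-square test), and took 20.3% of all kappa V counts there (17.3 to 23.5). Igkv8-34 entered that test only through library 2, so its p-value is a description and no support. Igkv1-117 had 0, 74.4 and 13.2 counts, Igkv8-28 0, 61.0 and 2, Igkv1-135 0, 55.7 and 4.28, and the lambda segment Iglv3 0, 64 and 6. These were low but not absent in library 3, with ratios of library 3 to library 2 of 0.221 (0.112 to 0.401), 0.0412 (0.00488 to 0.155), 0.0897 (0.0236 to 0.243) and 0.118 (0.0417 to 0.271) in that order. Igkv17-127 with 57 counts, Ighv7-3 with 54 and Igkv14-126 with 30 were detected in library 2 only. Ighv7-3 (chr12:114153180-114153269 for the bases shown) took 20.8% of heavy chain V counts in library 2 (16.4 to 26.2), against 0 of 260 counts in library 3, which at 3 counts allows up to 1.15%.

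Library 3 was led by Igkv16-104 (chr6:68425983-68426072 for the bases shown), with 0, 3 and 103 counts. It was high in library 3 alone, 43.1-fold above library 2 (14.4 to 213, adjusted p = 3.1e-26 for library 2 against 3, Poisson chi-square test), and took 12.52% of kappa V counts there (10.4 to 14.9). Igkv16-104 entered that test only through library 3, so its p-value is a description and no support. Igkv12-46 had 2, 3 and 64.7 counts and Igkv12-41 0, 4 and 63.0. Igkv9-120 with 2, 2.32 and 40.0 counts, Igkv5-43 with 1, 1 and 41.0 and Igkv17-121 with 0, 0 and 33 followed the same pattern. Library 3 exceeded library 2 by 27.2-fold for Igkv12-46 (8.91 to 135), 19.8-fold for Igkv12-41 (7.36 to 74.9), 25.1-fold for Igkv9-120 (6.52 to 215) and 51.5-fold for Igkv5-43 (8.74 to 2083).

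A few V segments had like levels in libraries 2 and 3. Iglv1 had 0, 43.2 and 35.0 counts, Igkv9-124 0, 37.6 and 29.8, Ighv4-1 0, 37 and 29, and Ighv1-53 0, 29.2 and 36.6. The ratio of library 3 to library 2 was 1.02 (0.635 to 1.64), 0.992 (0.593 to 1.64), 0.985 (0.584 to 1.65) and 1.60 (0.959 to 2.70) in that order. All 4 were at 0 in library 1, so that library 2 was at least 12.2-fold above it for Iglv1 and at least 8.24-fold for Ighv1-53.

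The other 27 V members, beside these, Iglv2 and Ighv9-3, had 10 to 53.05 summed counts and at most 1.42 in library 1. Their CPM was highest in library 2 for 7 and in library 3 for 20. Over all 47 V members, 19 had at least 90% of the CPM of libraries 2 and 3 in library 3 and 9 had it in library 2, while 19 lay between.

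**Figure D2:**
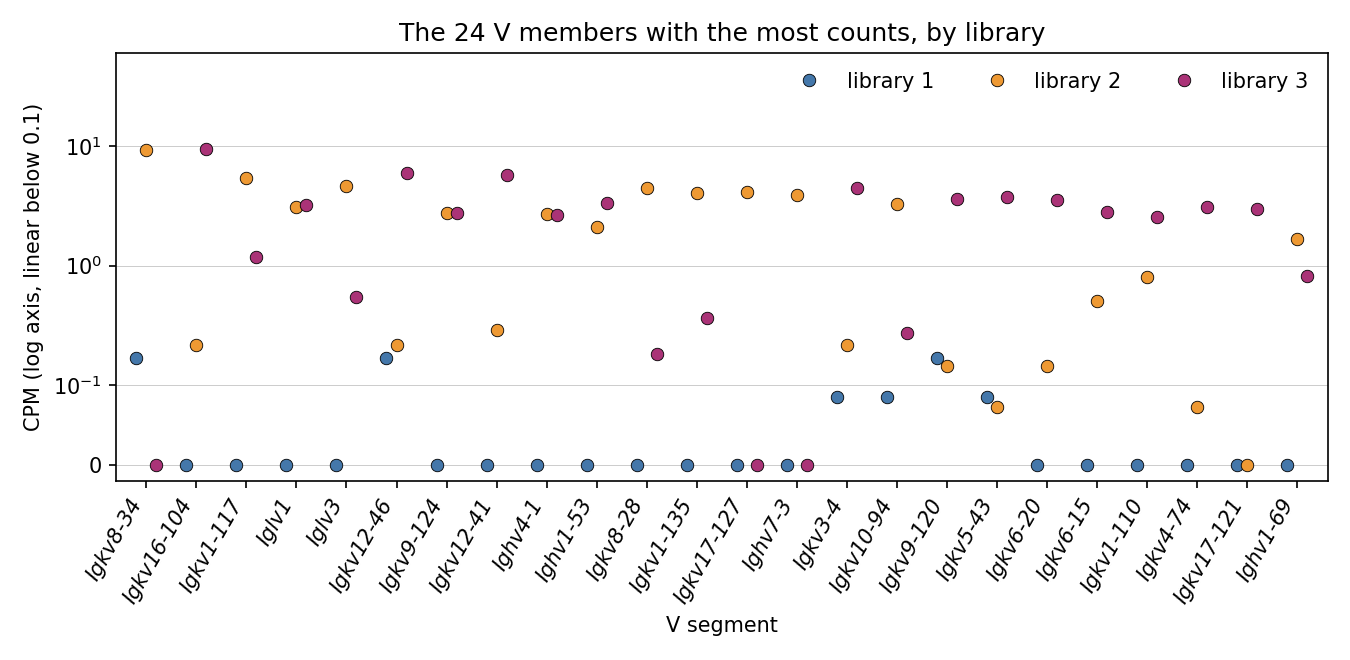
CPM (y axis, logarithmic above 0.1) of the 24 V members with the most counts, ordered by summed count, with a point for each library. Library 1 lies at or near 0 throughout, and for most segments either library 2 or library 3 is high.

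With library 1 left out, libraries 2 and 3 were compared directly by the same Poisson chi-square test with TMM sizes. Over all genes 33.8% of 14095 passed, and 47.3% of those were higher in library 3. Of the members, 43 were tested and 35 passed, 10 of them higher in library 2 and 25 higher in library 3. The V members made up 33 of those tested and 26 of those that passed, 9 higher in library 2 and 17 in library 3. The members that did not pass were Iglc3 and the V segments Ighv1-26, Ighv1-53, Ighv1-69, Ighv4-1, Igkv8-24, Igkv9-124 and Iglv1. As above, a segment abundant in 1 library alone enters this test through that library, so the counts are a description. Of the constant genes that passed, Iglc2 was higher in library 2 and the other 8 in library 3, Ighm by 1.17-fold and Igkc by 1.26-fold (1.17 to 1.35).

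Over all 218 annotated V genes, 0, 20 and 27 had 10 or more counts in libraries 1, 2 and 3, and 7 had that many in libraries 2 and 3 together, which is 35.0% of the library 2 set and 25.9% of the library 3 set. Among all genes with summed counts in the range of the V members, 10 to 130.4, the same shares were 74.4% of 3356 and 72.6% of 3442 genes, which describes the background and was not tested. Of the 5 leading kappa V segments of library 2 (Igkv8-34, Igkv1-117, Igkv8-28, Igkv17-127 and Igkv1-135) none was among the 5 leading ones of library 3 (Igkv16-104, Igkv12-46, Igkv12-41, Igkv3-4 and Igkv5-43). Of the 5 leading heavy chain V segments, 2 were shared, Ighv1-53 and Ighv4-1. The 5 leading kappa segments held 59.5% of kappa V counts in library 2 (55.7 to 63.3) and 39.0% in library 3 (35.7 to 42.4). In the whole-number table, which has no matched entry for Igkv8-34, these shares were 50.7% (44.9 to 56.5) and 45.3% (41.1 to 49.6), intervals that overlap, and the leading segment held 11.7% in library 2 (8.46 to 16.0) and 17.7% in library 3 (14.6 to 21.2), the other way round from the 20.3% and 12.52% of the estimated counts. T cell receptor V segments, measured in the same way, overlapped more. Of the Trav segments with 10 or more counts in library 2, 94.4% also had them in library 3, and of the Trbv segments 100%. Of those with 10 or more counts in library 3, 87.0% of the Trav and 90.5% of the Trbv segments had them in library 2. These have more counts, with a median sum of 124 for Trav and 1254 for Trbv against 32.1 for the V members. Some Trav copies had equal CPM in every library, such as Trav12d-2 and Trav12n-2 at 3.23, 9.78 and 8.19. Shared reads may thus be divided between such copies, which are still counted here as separate segments. The part of depth and of such copies in the difference from the immunoglobulin segments was not tested.

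**Figure D3:**
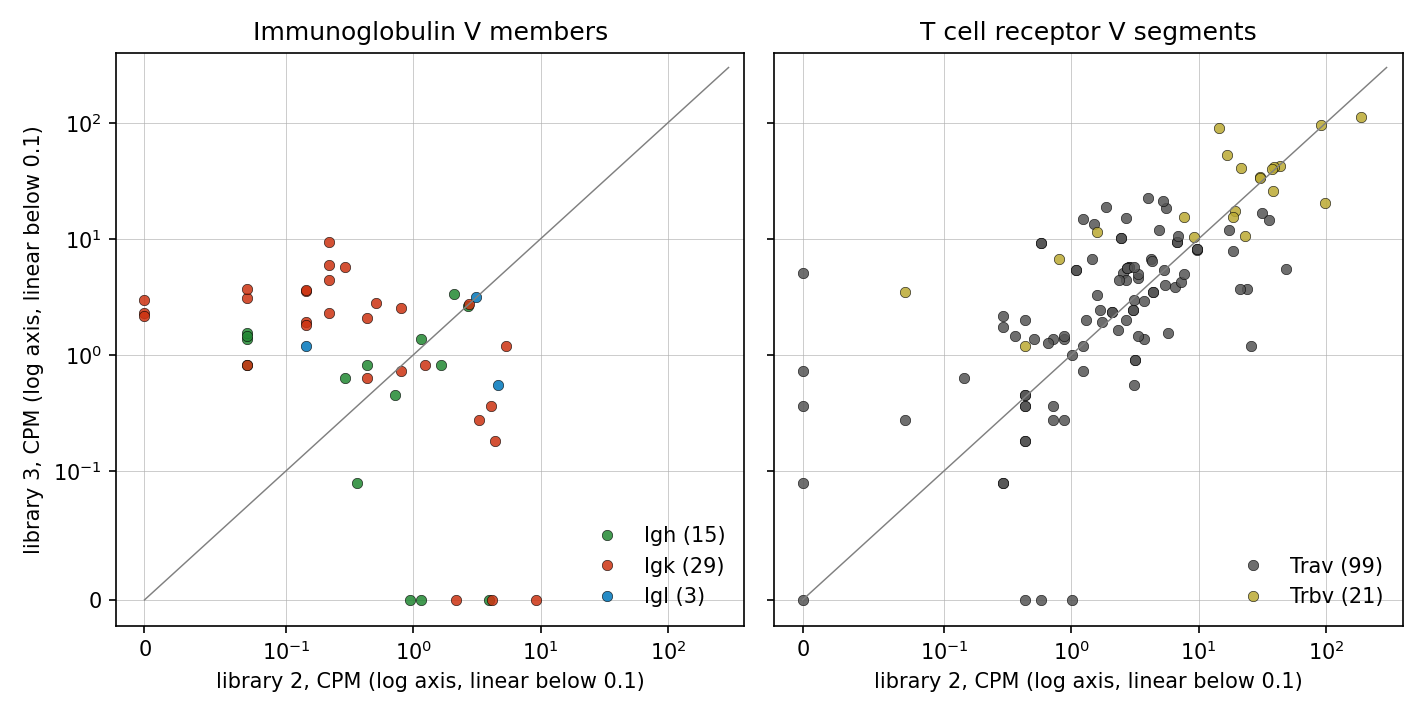
CPM in library 2 (x axis) against library 3 (y axis), both logarithmic above 0.1, for the 47 immunoglobulin V members (left) and for the Trav and Trbv segments with 10 or more summed counts (right), with a line of equality. Immunoglobulin segments lie mostly near the axes, high in 1 library and low in the other, while the T cell receptor segments scatter about the line.

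The lambda segments Iglv1 and Iglv2 illustrate how far counts can depend on the model that shares reads. Their longest coding exons are 97.0% identical, with 9 differences in 305 bases. The stretch of 120 bases with the most differences is shown for both, on the minus strand of chromosome 16, at chr16:19085202-19085321 and chr16:19260586-19260705, with the differing bases in capitals.
Iglv1: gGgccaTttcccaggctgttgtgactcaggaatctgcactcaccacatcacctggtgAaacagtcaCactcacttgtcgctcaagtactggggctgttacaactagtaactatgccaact
Iglv2: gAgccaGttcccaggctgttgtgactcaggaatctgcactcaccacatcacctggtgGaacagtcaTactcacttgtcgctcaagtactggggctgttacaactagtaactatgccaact
Only 4 bases differ within it. Iglv2 had 0, 1.75 and 13.0 counts with a posterior SD of 1.60 and 2.03 reads in libraries 2 and 3, and summed over libraries its posterior SD was 24.7% of its count, the highest of the V members. The median over V members was 5.40%, against 0.0257% over all tested genes, and 7 V members had a posterior SD of 0.

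V and constant counts were not in the same proportion at the 3 loci. At Igh there were 0.00366 V counts per constant count in library 1, 0.0422 in library 2 and 0.0420 in library 3, so V segments were few beside the abundant Ighm everywhere. With Ighm left out of the denominator the ratio was 0.331, 1.08 and 0.362. At Igk the ratio was 0.160, 0.390 and 0.506, and at Igl it was 0, 0.466 and 0.312. For the T cell receptor loci it was 0.280, 0.258 and 0.266 at Tra and 0.289, 0.293 and 0.269 at Trb, even across libraries. The Igh and Igk ratios were each lowest in library 1. The Igl ratio there rests on 10 constant counts, and 3 V counts would make it 0.3. In the whole-number table it rests on 2 constant counts, and 3 V counts would make it 1.5, above the 1.13 and 1.27 of libraries 2 and 3, so the place of library 1 at Igl is not settled. The Igh ratio without Ighm was close in libraries 1 and 3, and on TPM (1.39, 4.57 and 1.36) or whole-number counts (0.590, 1.13 and 0.346) library 3 was lowest. These ratios are not per length: on summed TPM the Igh ratio with Ighm was 0.0190, 0.200 and 0.199, and in the whole-number table it was 0.00999, 0.0680 and 0.0614.

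**Figure D4:**
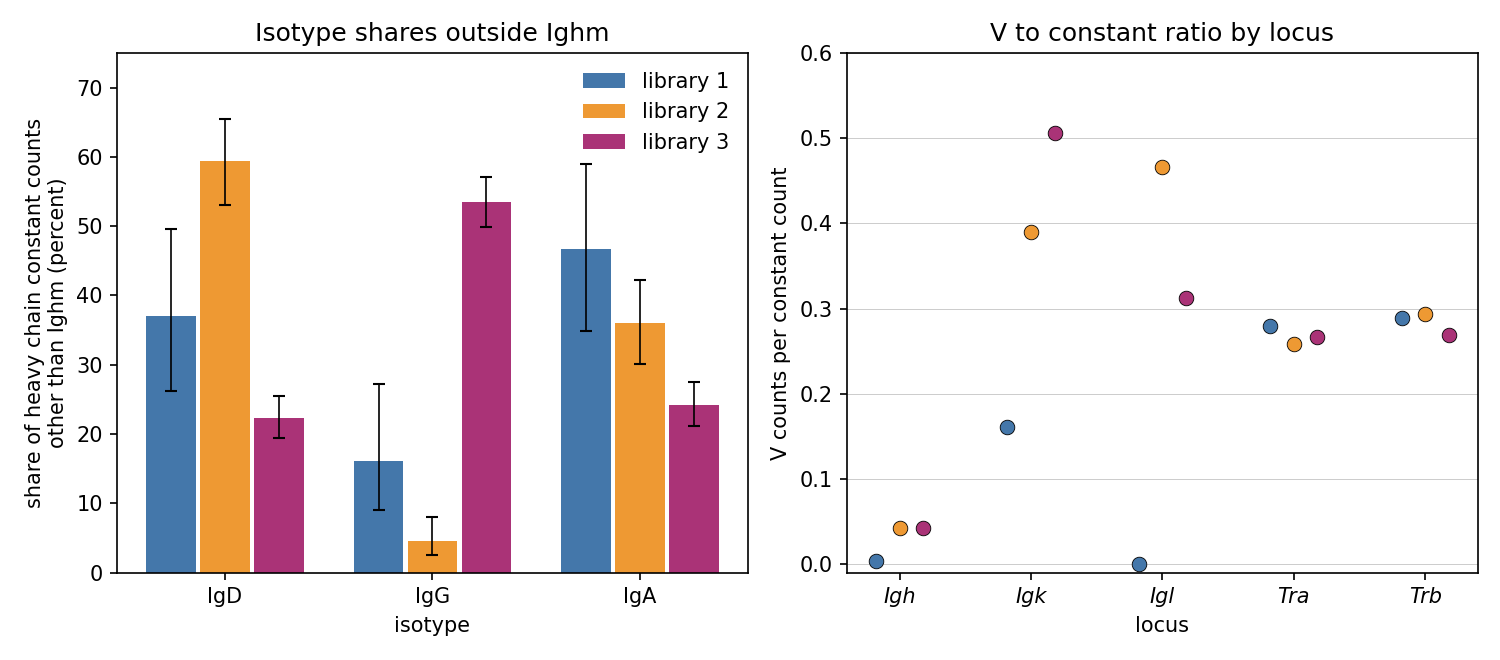
Left, share of the heavy chain constant counts other than Ighm taken by each isotype (y axis, percent) with 95% Wilson intervals as error bars; right, V counts per constant count at each locus (y axis). On these estimated counts IgD leads in library 2, which the whole-number table does not show, and IgG leads in library 3. The Igh and Igk ratios are lowest in library 1 while Tra and Trb are even, and the Igl point at 0 in library 1 rests on 10 constant counts.

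J and D segments were at 0 estimated counts in every library. The annotated J segments are 37 to 54 bases long and the D segments 10 to 29, and their effective length in the estimated table was at most 5 bases. In the whole-number table the 4 Igh J segments did have counts, 5, 8 and 16 for Ighj1, 1, 10 and 3 for Ighj2, 1, 4 and 3 for Ighj3 and 1, 3 and 10 for Ighj4 in libraries 1, 2 and 3. Each of the 4 was lowest in library 1.

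The whole-number table, made by the authors on another annotation, held 55 of the 58 members. Igkv8-34, Iglc1 and Iglc3 had no entry matched there. Of the members, 22 were tested and 22 passed, where 21.6% of 9991 genes did, and 17 were lowest in library 1. Ighm had 2263, 2350 and 2265 whole-number counts, Igkc 118, 586 and 602, Ighg2c 0, 0 and 153, Igkv16-104 0, 3 and 92 and Ighv7-3 0, 49 and 0. Relative to library size, the highest library was the same in both tables for each of these.

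Genes that act with immunoglobulins showed which other cells' markers moved alongside. For comparison with the lists here and below, 45.7% of all tested genes passed, and 29.5% of those were lowest in library 1. In these lists the lowest library is the one with the lowest TMM-scaled CPM, and by TPM Cd72, Tcf4, Alas2 and Trac, counted as lowest in library 1, were lowest elsewhere. In the B cell receptor and surface list, all 20 genes were tested and 18 passed, each lowest in library 1 by CPM and 17 of them by TPM, with a summed level of 53.9, 94.0 and 119 TPM in libraries 1, 2 and 3. Ms4a1 (CD20) had 10, 169 and 195 counts and Cd79a, a signalling chain of the B cell receptor, 14, 165 and 106.3. Both were low in library 1 and neither was at 0. Pax5, the factor that fixes B cell identity, had 4, 32 and 36 counts. Cd79b at 18.9, 23.4 and 34.1 TPM, Cd72 at 16.3, 14.9 and 24.1 and Cd22 at 6.08, 8.36 and 10.3 differed less. Blk and Plcg2 did not pass. These genes moved in the direction of most members, and their part in the members' differences was not tested.

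In the list for antibody secretion and plasma cells, 13 of 16 genes were tested, 10 passed and 4 of those were lowest in library 1, with a summed level of 895, 899 and 839 TPM. Jchain, which links IgA and IgM chains into polymers, had 12, 289 and 251 counts and Mzb1, an endoplasmic reticulum protein of antibody-secreting cells, 0, 25 and 35, both low in library 1. Jchain and Mzb1 were among the fixed plasma cell markers. The other such markers, Sdc1 (7, 7 and 2 counts), Derl3 (4, 7 and 4) and Tnfrsf17 (0, 1 and 2), were near 0 in all libraries. The genes with the highest TPM in the list serve secretion in many cells: Hspa5, an endoplasmic reticulum chaperone, stood at 658.5, 612 and 593 TPM, Xbp1 at 38.9, 35.8 and 30.3, Edem1 at 32.3, 33.2 and 36.8 and Txndc5 at 34.3, 38.4 and 22.8.

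**Figure D5:**
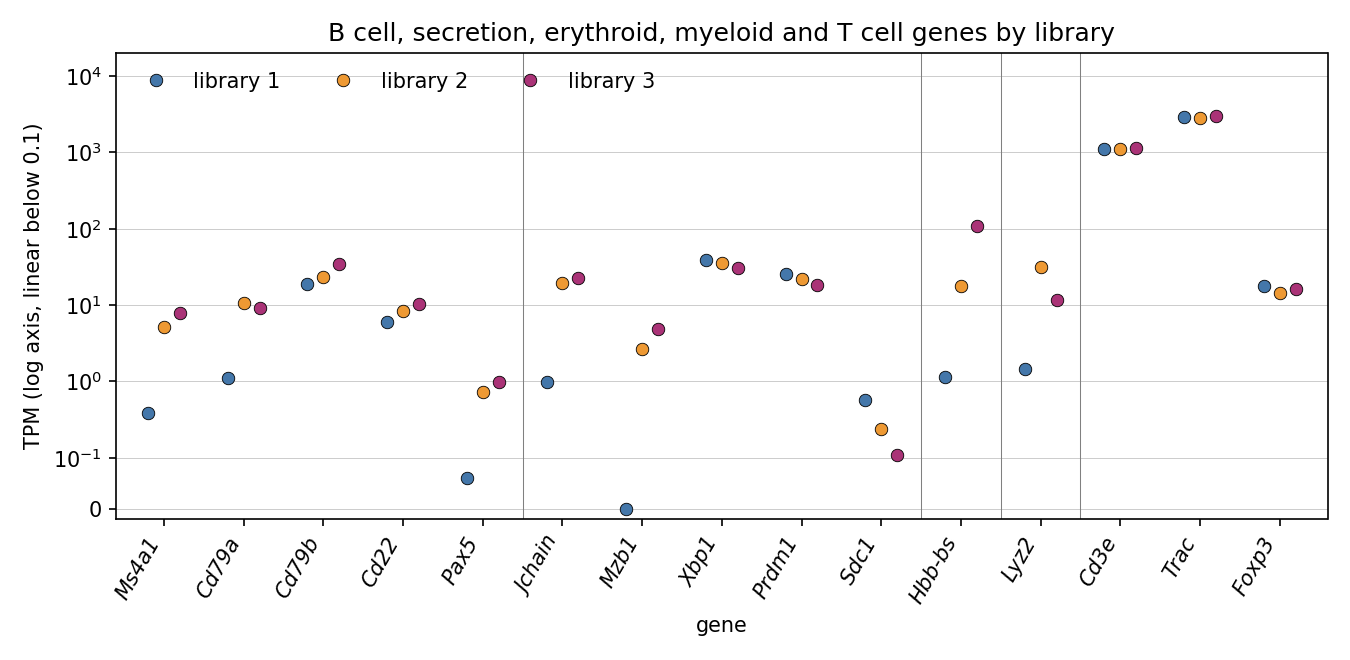
TPM (y axis, logarithmic above 0.1) of 15 companion genes in each library. The B cell genes Ms4a1, Cd79a and Pax5, Jchain and Mzb1, Hbb-bs and Lyz2 are low in library 1, while the T cell genes Cd3e and Trac are even.

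The other lists were mixed, where 45.7% of all tested genes passed and 29.5% of those were lowest in library 1. Of the class switch, hypermutation and recombination genes, 10 of 13 were tested, 5 passed and 0 of those were lowest in library 1, with a summed level of 177, 176 and 167 TPM. Rag1 and Rag2, the recombinase of V, D and J segments, were at 0 in every library. Apex1 at 43.5, 43.1 and 46.4 TPM, Exo1 at 21.7, 19.2 and 16.6 and Xrcc4 at 18.2, 19.6 and 18.6 act in DNA repair in many cells. Of the octamer and locus factors, 8 of 10 were tested, 7 passed and 3 of those were lowest in library 1, with a summed level of 216.5, 254 and 213 TPM; Ikzf1 stood at 91.3, 106.7 and 91.4 TPM, Ikzf3 at 67.2, 81.2 and 54.5, Pou2f1 at 16.5, 20.6 and 20.98 and Irf8 at 15.7, 19.6 and 13.7. Of the immunoglobulin receptor genes, 6 of 13 were tested, 4 passed and 3 of those were lowest in library 1, with a summed level of 11.52, 25.4 and 15.9 TPM. Fcer1g, the shared signalling chain of Fc receptors, stood at 0.530, 8.54 and 3.21 TPM and Trim21, a cytosolic antibody receptor, at 5.74, 7.98 and 5.96. None of the 4 surrogate light chain genes, which serve early B cell precursors, reached the test, and their summed level was 1.92, 1.73 and 1.28 TPM.

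Genes of other blood cells were uneven too. All 5 erythroid genes passed and were lowest in library 1 by CPM, 4 of them also by TPM, with a summed level of 4.83, 51.2 and 286 TPM, and Hba-a2 was at 0 in library 1. Of the 8 myeloid genes 5 were tested and 4 passed, each lowest in library 1, with a summed level of 3.25, 44.8 and 17.3 TPM; Lyz2 had 16.7, 441 and 123 counts. Of 6 T cell genes tested 5 passed, 2 of them lowest in library 1 by CPM and 1 by TPM, with a summed level of 5918, 5847 and 6197 TPM. Trac (T cell receptor alpha constant) stood at 2869, 2852 and 3009 TPM and Trbc2 at 3640, 3634 and 3676. The part of these cells' RNA in the members' differences was not tested.

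At the threshold that chose the members, Ighv5-17 (10.6 summed counts), Igkv1-133 (10.01) and Ighv1-19 (10) lay just inside, and Igkv10-96 (9.26), Ighv2-6-8 (8.76) and Igkv3-12 (8.48) just outside. A further 118 annotated immunoglobulin genes had 0 counts in every library and 88 had some counts but fewer than 10.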

How the data were processed

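The study deposited 3 libraries of polyadenylated RNA from 1 Treg sample, each with 3 tables. The first holds estimated counts per gene and TPM, in the column layout that RSEM writes, on mm10 and GENCODE M21, per the file headers and the deposited description of each file. Multi-mapped reads were shared by a model, and the posterior SD of each count is a signal of that uncertainty in reads, as deposited by the authors. The second gives these per transcript, and each transcript's percent of its gene in TPM, per the file headers. The third, from the authors, holds whole-number counts on GENCODE M4, per the deposited description; 22195 of its 22457 genes matched by identifier. Aligner, versions, read length, strand setting and duplicate treatment: not given in the sources used here; without strand, reads of overlapping antisense genes cannot be told apart.

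Estimated counts were rounded. A Poisson chi-square test of equal rates (scipy 1.17.1) used TMM sizes (edgeR 4.0.16), a minimum mean count of 10 and Benjamini-Hochberg adjustment over all genes tested, and it was checked on simulated data. The simulated counts followed the Poisson model that the test assumes, so the check cannot show how the test behaves under wider spread. Ratios carry exact conditional intervals and shares Wilson intervals. Alternatives were DESeq2 1.42.0 size factors, total counts, lower or no filters, the whole-number table, added posterior variance, TPM sums and each library left out. The constant genes, the 12 V members with the most counts, the 8 with the largest chi-square, those not lowest in library 1, the threshold genes and fixed companions and markers are named; others were named after their values were seen, as were the segments listed by rank. A few companion genes stand in 2 lists. Some items are not reported here. Members and lists were chosen with earlier results of these data known.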

Additional observations from a re-analysis of the deposited data

How the results depend on the processing

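Scaling by DESeq2 size factors or total counts, and adding the posterior variance, left the members that passed at 37 and those lowest in library 1 at 27. At a mean count of 3 or more, and with no filter, 42 members were lowest in library 1, of 58 tested in place of 37. The whole-number table, which holds fewer counts, called 2154 genes, with 22 members passing and 17 lowest in library 1. Leaving out each library in turn gave 2978 to 4765 genes and 21 to 35 members that differed, with both low ends without library 3. Where library 1 was kept, it was the lower of the remaining pair for 31 members without library 2 and 20 without library 3. Being the lower of a pair is not the same as being lowest of all 3 libraries. For 22 members with a test, the log2 ratio of the other libraries' mean CPM to library 1 was listed 162 times over these settings. In 161 it kept its sign and call. The exception was Ighm, at -0.024, which became 0.082 without library 2, its lowest library, and was -0.14 without library 3. Lower or no filters and the added posterior variance leave this ratio as it is, so its sign could not change there. The whole-number table and the runs without library 2 or 3 cover fewer than these 22 members. The 161 is thus a description and no support. The whole-number table gave an immunoglobulin share of 0.0817%, 0.108% and 0.146% in libraries 1, 2 and 3, and TPM sums 0.0460%, 0.0988% and 0.133%. The kappa share was 98.3% and 95.3% in libraries 1 and 3 in the whole-number table, where Iglc1 and Iglc3 have no matched entry. The IgM share was 98.3%, 94.0% and 82.2% and the IgG share 0.348%, 0.360% and 10.3% in that table, and in library 3 they were 85.3% and 8.55% on TPM. The Igh ratio of V to constant counts was 0.00999, 0.0680 and 0.0614 in the whole-number table and 0.0190, 0.200 and 0.199 on TPM. The Igk ratio was 0.481 and 0.865 in libraries 2 and 3 in the whole-number table, and 0.245, 0.596 and 0.760 on TPM. The share of kappa V counts on the 5 leading segments was 50.7% and 45.3% in libraries 2 and 3 in the whole-number table, where Igkv8-34 has no matched entry. The order of the libraries was kept for these shares and ratios, except that the IgG shares of libraries 1 and 2, equal within error, were 0.267% and 0.225% on TPM; apart from the missing entries the cause of the changes was not tested. A search of V promoters for the octamer motif was not run, because those promoters were not in the sequence tables used here. No paired analysis was possible because there is 1 group. With few counts, absence of a V segment from library 1 means at most 3 counts.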
